A study of Mus musculus with 8 samples.

Results

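Gene models whose symbol is "Gm" and a number hold the provisional names that mouse annotation gives to predicted genes. They include protein-coding genes of repeated families, long non-coding RNAs and copies of other genes. The count tables of 8 long-read libraries held 1236 such names among 24421 genes, and 422 of them had at least 1 read. The genes described here were selected on their raw reads, across states and platforms: all 34 whose counts summed to at least 100 over the 8 libraries. RefSeq now gives 16 of these 34 another symbol, 17 keep the Gm number, and Gm17066 was matched in GENCODE only. The 34 genes took 60224 reads, 0.691% of all reads on genes, and the median gene took 293.

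The libraries came from R1, an established mouse embryonic stem cell line, in 4 groups of 2 replicates. By the study's methods, Undiff cells were kept with leukaemia inhibitory factor and without retinoic acid; the labels instead list embryoid bodies for all samples. Day4 cells had grown as embryoid bodies without that factor and had then been exposed to retinoic acid for 4 days, at 2 µM by the design text and the methods but at 2 mM by the sample labels, a conflict left unresolved here. Poly(A) RNA of each culture was sequenced on Oxford Nanopore flow cells with 2 kits, here called platforms. ONT Direct RNA reads the RNA strand itself and used 500 ng, and ONT cDNA reads amplified reverse transcripts and used 50 ng. All groups share 1 cell line, and embryoid bodies are mixed populations, so that fewer cells of a type and less RNA per cell cannot be told apart.

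Each library gave between 283461 and 907489 reads on genes in ONT Direct RNA and between 948657 and 2088592 in ONT cDNA. CPM, the reads of a gene per 1000000 reads on all genes of its library, is used for levels, and 3 reads, the most that a count of 0 allows, correspond to 1.44 to 10.6 CPM. The state labels were checked against markers. The 8 pluripotency genes summed to 6569–7007 CPM in Undiff and 63.5–179 CPM in Day4 of ONT Direct RNA, and to 3369–4442 and 11.4–125 CPM in ONT cDNA. The 7 genes that respond to retinoic acid went the other way, from 11.5–13.2 to 883–1062 CPM and from 46.4–78.0 to 1029–1288 CPM. The 4 fibroblast or feeder genes summed to 7.71–14.3 CPM in Undiff and 320–988 CPM in Day4 of ONT Direct RNA, and to 4.31–8.43 and 74.1–84.2 CPM in ONT cDNA, with 2 of the 4 at 0 in Undiff. Most of those Day4 reads lay on Col1a1 and Col1a2. Thy1 went the other way, with 3 and 6 reads in Undiff and 0 and 3 in Day4 of ONT Direct RNA. In ONT cDNA it had 7 and 8 reads in Undiff and 0 and 2 in Day4. The 7 primitive endoderm genes summed higher in Day4 on both platforms, with Gata6, Gata4 and Ttr holding most of the reads, although Amn was lower. The sum of the 5 mesoderm genes was higher through Hand2, while T and Mesp1 had at most 1 read in any library. The sum of the endothelium list overlapped between states in ONT Direct RNA and was higher in Day4 in ONT cDNA. Its members diverged: Pecam1 was lower in Day4 on both platforms in CPM. Cdh5, Kdr and Tie1 had at most 1 read in any Undiff library and 4 to 41 reads in each Day4 library. The neural list, most of it Tubb3 in Undiff, and the list for the germ line and 2-cell-like cells summed lower in Day4 on both platforms. Nes rose against the neural sum, with 2 and 11 reads in Undiff and 11 and 40 in Day4 of ONT Direct RNA. In ONT cDNA Nes had 1 and 5 reads in Undiff and 15 and 32 in Day4. Neurog1 had no read in Undiff and 1 to 10 reads in each Day4 library. The part of these other cell types in the results below was not tested.

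Zinc finger genes and copies of other genes recur in the list. Zinc finger genes encode proteins with arrays of C2H2 fingers that bind DNA, many of them with a KRAB domain that recruits repressors to transposable elements, and lie in clusters that differ between mouse strains and species. Translation of the GENCODE transcripts found at least 3 finger motifs in 9 of the 34. Copies of housekeeping genes are made when a messenger RNA is reverse transcribed and inserted elsewhere, usually without introns. An alignment of at least 90% identity over at least 80% of the longest transcript marked 12 of the 34 as near-copies of another gene, 3 of them zinc finger genes; with any transcript of the gene allowed, 16 were marked. Reads on near-copies can be split between the copies by the aligner or left out of the counts for low mapping quality. Their counts are uncertain to that extent. By the biotypes of RefSeq, or of GENCODE for Gm17066, 21 genes were protein coding, 8 long non-coding and 5 pseudogenes, and 27 were spliced while 7 had a single exon.

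The sequences show how close the copies with most reads are. Gm12338 (mm10 chr11:75599763-75599954, minus strand) is a processed pseudogene of 192 bases, and all 192 are identical to the coding sequence of Cox7c, a subunit of cytochrome c oxidase in the respiratory chain. Gm10012 (Cox7c-ps1, chr17:25901856-25902227, plus strand) matches the same 192 bases with 2 mismatches. Coding bases 24 to 113 of Cox7c are shown for the 3 genes, from GENCODE vM21 transcripts, 5′ to 3′, with bases of a copy that differ from Cox7c in capitals.
Cox7c: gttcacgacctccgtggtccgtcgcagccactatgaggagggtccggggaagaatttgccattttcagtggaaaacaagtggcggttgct
Gm12338: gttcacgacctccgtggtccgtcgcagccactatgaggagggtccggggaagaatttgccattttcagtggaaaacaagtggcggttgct
Gm10012: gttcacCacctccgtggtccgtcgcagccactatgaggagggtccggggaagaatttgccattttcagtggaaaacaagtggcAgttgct
Over this stretch Gm12338 and Cox7c have no base that tells them apart.

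Gm4737 (chr16:46152985-46155077, minus strand) is a single-exon copy of Ahcy, the enzyme that clears S-adenosylhomocysteine after methylation reactions; 4 of 1299 coding bases differ. Gm3258 (now Supt4b, chr10:31413815-31414165, minus strand) copies Supt4a, a subunit of the elongation factor DSIF, with 3 of 351 bases different. Gm15421 (chr5:22528321-22529244, minus strand) copies Rpl22l1, a ribosomal protein paralogue, with 2 of 369 bases different. The windows of 90 coding bases with most mismatches show what is left to assign a read, with differing bases in capitals.
Ahcy, coding bases 422 to 511: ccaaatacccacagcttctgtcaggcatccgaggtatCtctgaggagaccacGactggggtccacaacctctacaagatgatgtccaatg
Gm4737: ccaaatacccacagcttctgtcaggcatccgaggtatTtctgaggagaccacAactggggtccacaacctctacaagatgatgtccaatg
Supt4a, coding bases 8 to 97: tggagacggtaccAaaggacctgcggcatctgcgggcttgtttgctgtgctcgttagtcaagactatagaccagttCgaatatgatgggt
Gm3258: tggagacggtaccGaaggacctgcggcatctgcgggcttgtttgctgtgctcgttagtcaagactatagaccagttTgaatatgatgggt
Each of these pairs differs at 2 positions in its window.

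Gm5148 (chr3:37714190-37724490, minus strand) is a spliced gene model whose exon overlaps Rps23-ps1, a pseudogene of the ribosomal protein gene Rps23, by 396 bases on the other strand. The reverse complement of its transcript holds 398 of the 432 coding bases of Rps23 without a mismatch. The first 30 coding bases of Rps23, which lie in Gm5148 in the opposite direction, are given as the start of that stretch.
Rps23: atgggcaagtgtcgtggtctccgaactgcc
No capitals are used here because no base differs.

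**Figure D1:**
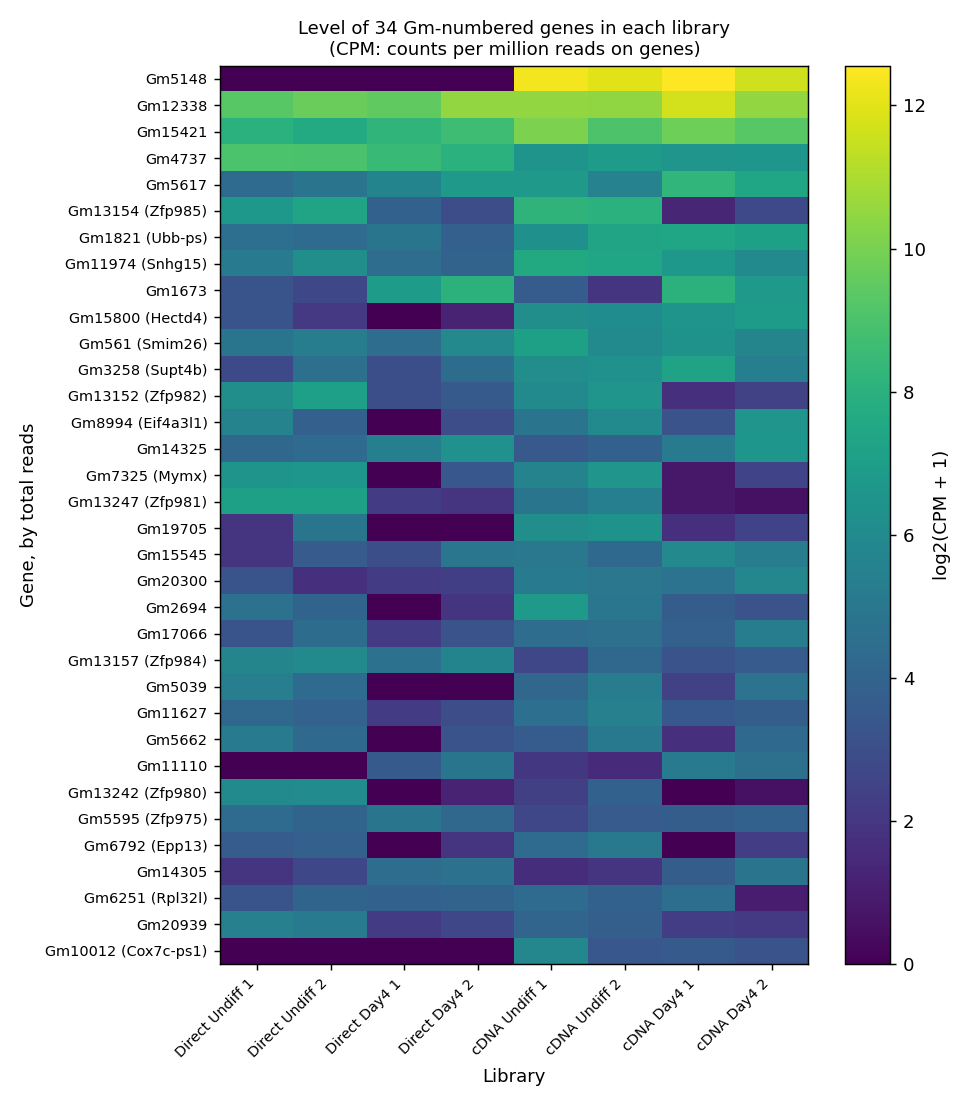
Level of the 34 genes (rows, by total reads, with the RefSeq symbol in brackets where it differs) in each of the 8 libraries (columns), as log2(CPM + 1) by colour. The 3 genes with most reads stand at the top, and Gm5148 is at 0 in the 4 ONT Direct RNA libraries and the highest of all in the 4 ONT cDNA libraries.

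Gm5148, Gm12338 and Gm15421 took 78.8% of the reads of the 34 genes, and Gm5148 alone took 46.6%. Gm5148 had no read in any ONT Direct RNA library. In ONT cDNA it had 5243 and 4026 CPM in Undiff and 6020 and 3259 CPM in Day4. The states overlapped in ONT cDNA (log2 fold change -0.29 ± 0.43 (SE), adjusted p = 0.87, DESeq2). Gm12338 had 637 and 836 CPM in Undiff and 719.7 and 1456 CPM in Day4 in ONT Direct RNA. Its levels in ONT cDNA were 1479 and 1405 CPM in Undiff and 3364 and 1486 CPM in Day4. All 4 ONT Direct RNA libraries showed Gm12338, and the first Day4 replicate of ONT cDNA stood above the other 3. Gm15421 had 261 and 202 CPM in Undiff and 293 and 401 CPM in Day4 in ONT Direct RNA. In ONT cDNA it had 1076 and 529.5 CPM in Undiff and 878 and 624 CPM in Day4, and its Undiff and Day4 ranges overlapped there. None of these 3 genes passed the test between states on either platform. Per kilobase of its longest GENCODE transcript, Gm12338 was the highest of the 34 on both platforms, with mean levels of 4752 CPM per kilobase in ONT Direct RNA and 10071 in ONT cDNA. The RefSeq span of Gm12338 is 598 bases against 192 in GENCODE, and gives 1526 and 3233 CPM per kilobase, still above the GENCODE-based values of the other 33. Gm5148 followed in ONT cDNA with 1798 CPM per kilobase and Gm15421 with 1754, a difference within the spread of their libraries.

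The first comparison asked which of the 34 genes differed between Undiff and Day4 cells, and whether both platforms showed it. Of all reads on genes 49.3% came from Undiff and 50.7% from Day4 libraries, and the 34 genes held 28174 and 32050 reads there. The choice of genes bears on this comparison too: of the 15 that passed on either platform 14 had fewer than 100 reads in the state where they were lower, with Gm11974 the exception, and needed reads of the other state to enter the list. Counts over the 34 are therefore a description. Each test was run over all genes, and the adjusted p of these 14 genes are printed below under the same limit. DESeq2's Wald test with shrunken fold changes was fitted to all genes on each platform, and a gene passed with an adjusted p of at most 0.05, an absolute log2 fold change of at least 1 and a mean normalised count of at least 5. In ONT Direct RNA 27 of the 34 reached that mean. Of these, 1 rose and 7 fell in Day4, beside 9.54% of all genes with that mean that rose and 7.67% that fell. In ONT cDNA all 34 reached it, 3 rose and 10 fell, beside 8.69% and 9.24% of all genes. Among all 8190 genes with a total of at least 100 reads the shares were 8.85% and 8.44% in ONT Direct RNA and 9.21% and 9.55% in ONT cDNA. On both platforms in the same direction 6 of the 34 passed: Gm1673 rose, and Gm13154, Gm13152, Gm7325, Gm13247 and Gm13242 fell. Among genes that reached this mean on each platform, 6.19% rose and 5.18% fell on both. With edgeR's quasi-likelihood test 15 of the 34 passed in ONT Direct RNA, 18 in ONT cDNA and 13 on both in place of 6, beside 33.8%, 32.6% and 23.2% of all genes with that mean. The median log2 fold change of the 34 was -0.99 in ONT Direct RNA, over the 32 with a value, and -0.52 in ONT cDNA, against -0.04 and -0.02 for all genes with at least 100 reads.

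The genes that fell on both platforms were, with 1 exception, zinc finger genes of chromosome 4. Gm13154 (now Zfp985, chr4:147553277-147585198, plus strand, 10 finger motifs) had 103 and 158 CPM in Undiff and 14.1 and 6.78 CPM in Day4 in ONT Direct RNA (fitted log2 change -3.69 ± 0.67 (SE), adjusted p = 2.3e-06). The ONT cDNA libraries gave 284 and 263 CPM in Undiff and 1.52 and 5.78 CPM in Day4 (fitted log2 change -6.26 ± 0.56 (SE), adjusted p = 6.6e-26). Every Undiff library stood above every Day4 library on both platforms. Gm13152 (Zfp982, chr4:147492417-147513486, plus strand, 7 motifs) had 71.7 and 137 CPM in Undiff and 7.06 and 10.8 CPM in Day4 in ONT Direct RNA (fitted log2 change -3.36 ± 0.71 (SE), adjusted p = 7.8e-05). Its levels in ONT cDNA were 61.1 and 92.4 CPM in Undiff and 2.28 and 4.33 CPM in Day4 (fitted log2 change -4.61 ± 0.64 (SE), adjusted p = 8.7e-11). Again the states did not overlap on either platform. Gm13247 (Zfp981, chr4:146502027-146539395, plus strand, 9 motifs) was counted at 49 and 126 reads in Undiff and 1 and 2 reads in Day4 in ONT Direct RNA, a ratio of Undiff to Day4 of 47.4-fold (95% counting interval 16 to 232) over the pooled libraries. In ONT cDNA the counts were 27 and 88 reads in Undiff and 1 and 1 reads in Day4, a ratio of 64.3-fold (95% counting interval 17.4 to 537). The adjusted p of Gm13247 was 2.7e-08 and 5.6e-07 (DESeq2), and the intervals cover counting error only. Gm13242 (Zfp980, chr4:145670685-145704441, plus strand, 17 motifs) is a near-copy of Rex2, 94.9% identical over 99.8% of its transcript. It was counted at 21 and 60 reads in Undiff and 0 and 1 reads in Day4 in ONT Direct RNA, a ratio of 65.8-fold (95% counting interval 11.5 to 2633), and its adjusted p was 1.2e-04 (DESeq2). ONT cDNA gave 4 and 29 reads in Undiff and 0 and 1 reads in Day4, a ratio of 36.9-fold (95% counting interval 6.18 to 1501) and an adjusted p of 0.017 (DESeq2). In both platforms at most 1 read of Gm13242 was left in a Day4 library.

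Another zinc finger gene of the same chromosome did not pass. Gm13157 (Zfp984, chr4:147753974-147809788, minus strand, 11 motifs) had 51.7 and 60.6 CPM in Undiff and 24.7 and 50.2 CPM in Day4 in ONT Direct RNA (fitted log2 change -0.61 ± 0.65 (SE), adjusted p = 0.76). Its ONT cDNA levels were 5.27 and 18.2 CPM in Undiff and 8.34 and 11.1 CPM in Day4 (fitted log2 change -0.57 ± 0.84 (SE), adjusted p = 0.87), and the states overlapped there. The stretch of chromosome 4 from the first to the last of these genes, chr4:145670685-147809788, was examined after their values were seen, and holds 7 further counted coding genes of RefSeq. Of these, 4 reached a mean of 5 in ONT Direct RNA, and 3 fell: Gm13051 (Zfp987), Zfp600 and 2610305D13Rik (Zfp979), with adjusted p of 0.011, 0.029 and 1.3e-08 (DESeq2). In ONT cDNA 2 of the 7 reached that mean, and none passed: 2610305D13Rik had 50 and 197 reads in Undiff and 0 and 16 in Day4 (adjusted p = 0.13), and Rex2 had 8 and 25 in Undiff and 0 and 4 in Day4 (adjusted p = 0.050, just above the threshold; both DESeq2). None of the 7 rose on either platform.

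The start sites of these genes resemble each other. RefSeq promoter entries (GRCm38.p6, 250 bases before to 50 after a start) were found for 24 of the 34 genes, 28 entries in all. One entry of each of the 5 chromosome 4 genes was alignable with the others, and the 4 genes that fell were 85.7 to 92.1% identical to each other over 268 to 290 aligned bases. The entry of Zfp984, which did not pass between states, was 80.7 to 84.6% identical to those 4. Each of the 5 holds ATTGGGCGG, a CCAAT box (ATTGG on this strand) that overlaps a GC box (GGGCGG) by 2 bases, at 68 to 95 bases before the start. The windows run from 110 bases before to 50 after the start, 5′ to 3′ on the strand of the gene, with that motif in capitals.
Gm13154 (Zfp985, chr4:147553167-147553326, plus): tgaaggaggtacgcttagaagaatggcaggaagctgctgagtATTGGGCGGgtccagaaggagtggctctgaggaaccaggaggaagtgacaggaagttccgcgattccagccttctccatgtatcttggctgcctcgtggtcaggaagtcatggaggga
Gm13152 (Zfp982, chr4:147492307-147492466, plus): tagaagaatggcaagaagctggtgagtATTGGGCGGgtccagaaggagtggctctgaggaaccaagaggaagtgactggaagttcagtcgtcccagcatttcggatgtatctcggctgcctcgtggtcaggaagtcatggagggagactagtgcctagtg
Gm13247 (Zfp981, chr4:146514810-146514969, plus): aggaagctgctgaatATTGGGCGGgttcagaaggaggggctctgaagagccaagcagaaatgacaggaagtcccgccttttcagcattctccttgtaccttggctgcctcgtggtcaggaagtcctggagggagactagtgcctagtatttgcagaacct
Gm13242 (Zfp980, chr4:145670587-145670746, plus): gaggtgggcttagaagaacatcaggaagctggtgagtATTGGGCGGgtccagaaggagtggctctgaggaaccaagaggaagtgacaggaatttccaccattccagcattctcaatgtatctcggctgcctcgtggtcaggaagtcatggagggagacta
Gm13157 (Zfp984, chr4:147809739-147809898, minus): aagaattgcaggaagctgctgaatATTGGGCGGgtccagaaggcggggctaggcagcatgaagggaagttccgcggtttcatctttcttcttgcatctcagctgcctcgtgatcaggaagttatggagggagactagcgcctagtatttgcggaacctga
The joined motif was noticed in these entries and then searched on both strands of all 32851 promoter entries of the same length, of which 0.256% hold it. Of the counted genes with the motif, 8 lie in the chromosome 4 stretch and 38 others reached the minimum mean in each fit. None of those 38 fell on both platforms and 2 rose on both, beside 5.18% and 6.19% of all genes with that mean on both. For so few genes these counts cannot be told from those shares. Of the 8, 7 reached that mean and 4 fell on both, all among the 5 genes in whose entries the motif was noticed. Other motifs were searched on both strands too. The octamer ATGCAAAT was in 1.74% of all entries, the nuclear receptor half-site AGGTCA in 16.3% and the E-box CACGTG in 7.15%. The GC box GGGCGG was in 35.7%, the CCAAT box in 37.4%, the TATA box motif TATAAA in 13.6% and the YY1 motif AAGATGGC in 2.75%. Among the 28 entries of the genes described here, AGGTCA, the half-site bound by retinoic acid receptors, was in those of Gm14305, Gm14325 and Gm5595, and ATGCAAAT, the octamer bound by Oct4, in that of Gm20939. Neither was in the 5 entries that align.

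**Figure D2:**
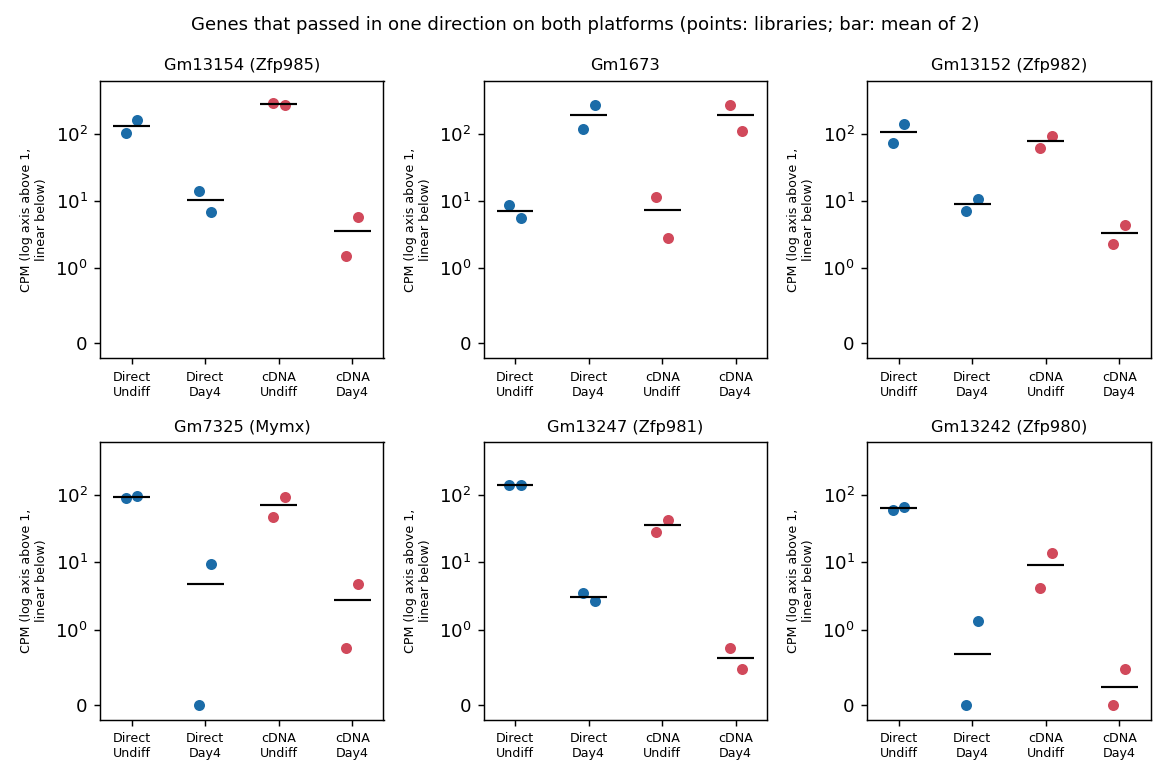
Level in CPM of the 6 genes that passed in one direction on both platforms; each point is 1 library, the bar is the mean of 2, and the vertical axis is logarithmic above 1 CPM and linear below. Gm1673 is higher in Day4 and the other 5 are higher in Undiff, with no overlap between states in any panel. Among all genes with a total of at least 100 reads, 35.3% lay above and 31.8% below in Day4 without overlap in ONT Direct RNA. In ONT cDNA 42.5% and 22.5% did.

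The exception among the genes that fell was Gm7325 (chr17:45600971-45602102, minus strand), now Mymx, whose microprotein drives the fusion of myoblasts. It had 89 and 94.8 CPM in Undiff and 0 and 9.49 CPM in Day4 in ONT Direct RNA (fitted log2 change -3.69 ± 0.78 (SE), adjusted p = 8.1e-05). ONT cDNA gave 47.4 and 92.9 CPM in Undiff and 0.759 and 4.81 CPM in Day4 (fitted log2 change -4.63 ± 0.70 (SE), adjusted p = 3.2e-09). The first Day4 replicate had 0 reads in ONT Direct RNA and 1 read in ONT cDNA. The gene that rose on both platforms, Gm1673 (chr5:33983433-33985013, plus strand), encodes a small secreted protein homologous to human C4orf48. Its levels were 8.61 and 5.51 CPM in Undiff and 116 and 266 CPM in Day4 in ONT Direct RNA (fitted log2 change 4.49 ± 0.68 (SE), adjusted p = 3.9e-09). In ONT cDNA they were 11.6 and 2.87 CPM in Undiff and 269 and 109 CPM in Day4 (fitted log2 change 4.32 ± 0.66 (SE), adjusted p = 4.6e-09). The states did not overlap, although the 2 Day4 libraries of each platform differed by more CPM than their Undiff libraries. As a ratio, the 2 Undiff libraries of ONT cDNA differed more than its Day4 libraries. Its RefSeq promoter entry is CpG-rich, with 29 CpG and 68.0% GC against medians of 7 and 52.7% over all entries. This is not particular to it: the entries of Gm11974, Gm2694 and Gm5617 hold 29, 42 and 30 CpG. Of these genes Gm11974 and Gm2694 fell in ONT cDNA.

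The remaining zinc finger genes lie on chromosomes 2, 7 and 17. Gm20939 (chr17:94864918-94878321, plus strand, 21 motifs) fell in ONT Direct RNA, where it had 43 and 35.3 CPM in Undiff and 3.53 and 5.42 CPM in Day4 (fitted log2 change -2.75 ± 0.94 (SE), adjusted p = 0.035). In ONT cDNA it had 15.8 and 12.9 CPM in Undiff and 3.79 and 3.37 CPM in Day4 and did not pass (fitted log2 change -2.13 ± 0.87 (SE), adjusted p = 0.1). Gm14325 (chr2:177831791-177840336, minus strand, 14 motifs), a near-copy of Gm14326, rose in ONT cDNA, where it had 10.5 and 13.9 CPM in Undiff and 34.9 and 95.8 CPM in Day4 (fitted log2 change 1.96 ± 0.62 (SE), adjusted p = 0.019). In ONT Direct RNA it had 17.2 and 19.8 CPM in Undiff and 42.3 and 79.99 CPM in Day4 and did not pass (fitted log2 change 1.53 ± 0.71 (SE), adjusted p = 0.18). Its neighbour in sequence Gm14326 had 7 and 20 reads in Undiff and 4 and 19 in Day4 of ONT Direct RNA, and 4 and 5 and then 9 and 17 in ONT cDNA, and passed on neither platform. Gm14305 (chr2:176708328-176721813, plus strand, 14 motifs), with 99.5% identity to Gm4724, had 2.87 and 5.51 CPM in Undiff and 21.2 and 24.4 CPM in Day4 in ONT Direct RNA and 2.11 and 2.87 CPM in Undiff and 12.1 and 27.4 CPM in Day4 in ONT cDNA. It passed on neither platform with DESeq2 (adjusted p = 0.32 and 0.074), although its states did not overlap, and Gm4724 had 0 reads in all 8 libraries. Gm5595 (Zfp975) had 20.1 and 15.4 CPM in Undiff and 28.2 and 17.6 CPM in Day4 in ONT Direct RNA, and log2 fold changes of 0.22 and 0.31. Of the 9 zinc finger genes, the 5 that fell on a platform each had at most 23 reads in Day4 over all libraries and needed their Undiff reads to enter the list, so that no count over the 9 is read against all genes here.

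With DESeq2, most other genes that passed did so in ONT cDNA alone. They include 5 of the 8 long non-coding genes, beside the 9.24% and 8.69% of all genes that fell and rose there. Of the 5, 4 fell, and all 5 needed reads of the higher state or of ONT cDNA to enter the list. With edgeR, Gm11974 and Gm2694 passed in ONT Direct RNA as well (adjusted p = 0.0016 and 0.0039). Gm19705 (chr1:136670769-136690804, plus strand) had 72.7 and 87.1 CPM in Undiff and 2.28 and 4.81 CPM in Day4 in ONT cDNA (fitted log2 change -4.58 ± 0.62 (SE), adjusted p = 3.4e-11). In ONT Direct RNA it was counted at 1 and 26 reads in Undiff and 0 and 0 reads in Day4, at least 7.32-fold lower in Day4 against the 3 reads that a count of 0 over the group allows, and its mean of 4.16 was under the minimum. Gm2694 (chr8:87460469-87525554, plus strand) had 106 and 29.7 CPM in Undiff and 12.1 and 8.18 CPM in Day4 in ONT cDNA (fitted log2 change -2.94 ± 0.67 (SE), adjusted p = 2.9e-04). Its 4 ONT Direct RNA libraries gave 9 and 14 reads in Undiff and 0 and 2 reads in Day4 (adjusted p = 0.13, DESeq2). Both genes were lower in Day4 in every library of ONT cDNA. Gm11974 (now Snhg15, chr11:6525591-6528760, minus strand), a host gene of small nucleolar RNA, had 198 and 168 CPM in Undiff and 101 and 64 CPM in Day4 in ONT cDNA (fitted log2 change -1.43 ± 0.45 (SE), adjusted p = 0.02). Its ONT Direct RNA levels were 34.4 and 73.8 CPM in Undiff and 21.2 and 14.9 CPM in Day4 (adjusted p = 0.16, DESeq2). Gm11627 (chr11:102576398-102579461, minus strand) had 23.2 and 43.1 CPM in Undiff and 9.86 and 12 CPM in Day4 in ONT cDNA (fitted log2 change -1.84 ± 0.65 (SE), adjusted p = 0.043), and 17.2 and 14.3 CPM in Undiff and 3.53 and 6.78 CPM in Day4 in ONT Direct RNA. These 4 genes fell, while Gm11110 rose. Gm11110 (chr17:57091370-57105942, minus strand) overlaps exons of Tnfsf9, a ligand of the TNF family, on the other strand. It had 3.16 and 1.92 CPM in Undiff and 35.7 and 24.1 CPM in Day4 in ONT cDNA (fitted log2 change 3.05 ± 0.84 (SE), adjusted p = 0.0043). ONT Direct RNA, which was counted by strand, gave 0 and 0 reads in Undiff and 3 and 21 reads in Day4, at least 9.84-fold higher in Day4, with an adjusted p of 0.032 (DESeq2) and a mean of 4.72 that missed the minimum. Tnfsf9 itself had 1 and 2 reads in Undiff and 7 and 30 in Day4 of ONT Direct RNA, and 3 and 3 and 26 and 87 in ONT cDNA, and rose on both platforms (adjusted p = 0.036 and 0.0034, DESeq2). The part of Tnfsf9 reads in the ONT cDNA counts of Gm11110 was not tested.

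Gm6792 and Gm5039 passed on 1 platform each. Gm6792 (now Epp13, chr7:6252710-6282066, plus strand) had 20.03 and 33 CPM in Undiff and 0 and 3.85 CPM in Day4 in ONT cDNA (fitted log2 change -3.67 ± 0.87 (SE), adjusted p = 5.8e-04), and 4 and 12 reads in Undiff and 0 and 2 reads in Day4 in ONT Direct RNA. Gm5039 (chr12:88320122-88324026, minus strand) belongs to a tandem family on chromosome 12 and is 94.4% identical to BB287469. ONT Direct RNA gave 14 and 18 reads in Undiff and 0 and 0 reads in Day4, at least 8.67-fold lower in Day4 with an adjusted p of 0.0052 (DESeq2). In ONT cDNA it had 16 and 79 reads in Undiff and 6 and 55 reads in Day4 and did not pass (fitted log2 change -1.11 ± 0.75 (SE), adjusted p = 0.46). Its neighbour Gm5662, 99.3% identical to Gm2016, had 12 and 17 reads in Undiff and 0 and 6 reads in Day4 in ONT Direct RNA and 11 and 68 reads in Undiff and 3 and 38 reads in Day4 in ONT cDNA, and passed on neither (adjusted p = 0.23 and 0.39, DESeq2). In ONT cDNA the second replicate of each state held most of the reads of both genes.

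**Figure D3:**
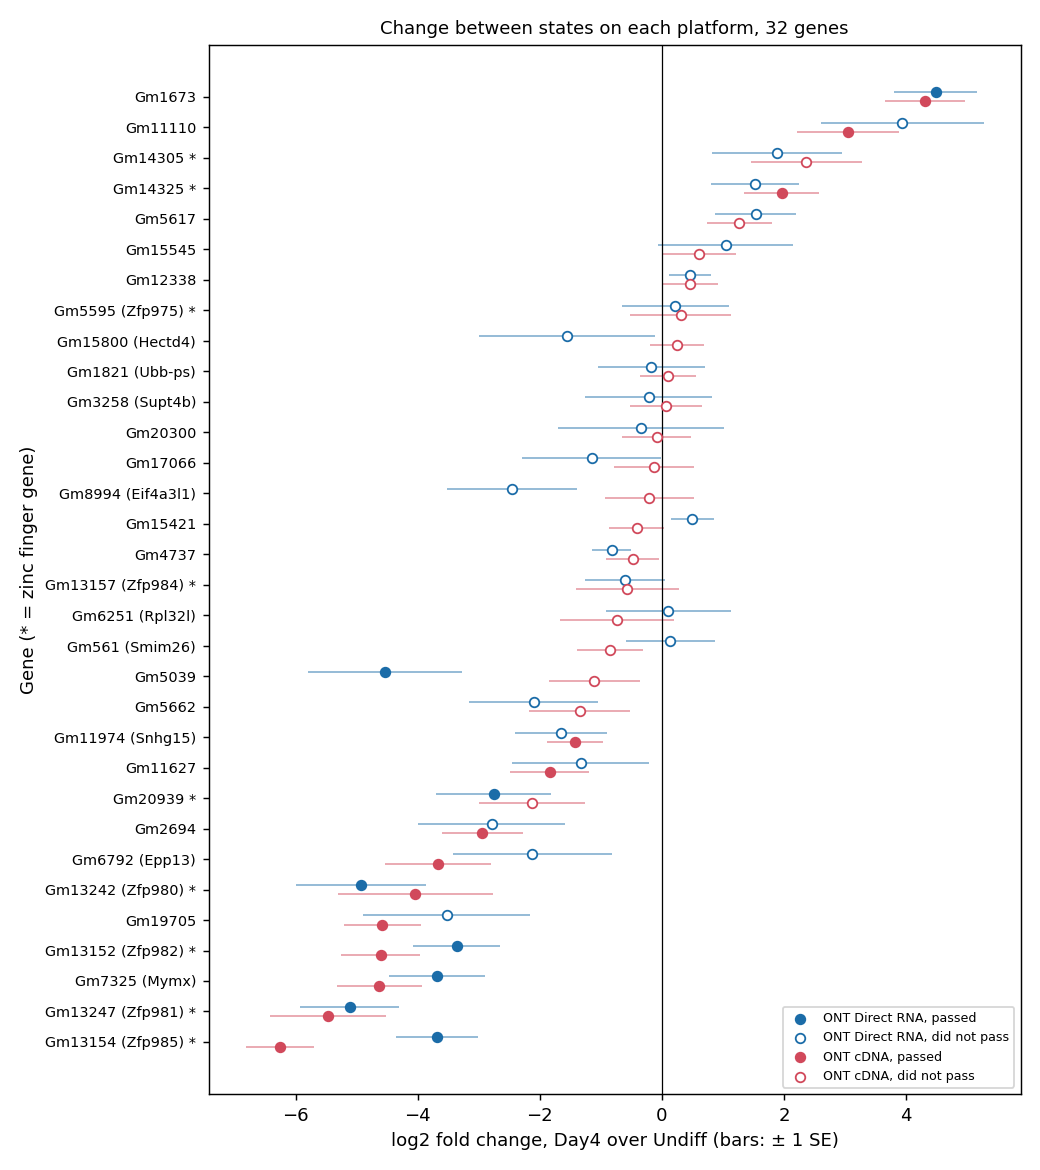
Log2 fold change of Day4 over Undiff (horizontal axis, bars ± 1 SE) for the 32 genes with a value on both platforms; filled points passed the test, open points did not, and a star marks the zinc finger genes. The 5 genes that fell on both platforms lie at or below -3.36, and Gm1673 lies above 4 on both.

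An interaction term over all 8 libraries tested the difference between the platforms in how states changed. None of the 34 passed with DESeq2, 2 had an unadjusted p of at most 0.05, and edgeR gave 0 and 4. Over all genes, 0.0116% passed. The 2 were Gm13154, with an interaction of -2.57 ± 0.89 (SE) on the log2 scale, and Gm5039, with 5.08 ± 1.89 (SE). A gene that passed on 1 platform is therefore not shown to differ between them. Gm13154 fell on both. The Undiff level of Gm13154 was 103 and 158 CPM in ONT Direct RNA and 284 and 263 CPM in ONT cDNA.

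The counts between states rest on few libraries. Without the second Undiff replicate of ONT Direct RNA, its deepest library, 2 of the 34 genes passed there (Gm1673 and Gm13247) in place of 8, and 2 in place of 6 passed on both platforms; without the first Undiff replicate 5 passed. The ONT Direct RNA call of Gm7325 was lost without either of these replicates, with a fitted log2 change as small as -2.31 and an adjusted p of up to 0.81 (DESeq2). Without the second Day4 or the second Undiff replicate of ONT cDNA, 7 and 8 genes passed in place of 13. In ONT cDNA, Gm1673, Gm13154, Gm13152, Gm7325, Gm13247 and Gm19705 passed without any 1 library. The call of Gm13242 there was lost without either Day4 replicate and without the second Undiff replicate. Some calls held only with all libraries. Gm20939 and Gm5039 in ONT Direct RNA passed in none of the 4 fits without 1 library, with adjusted p from 0.26 to 0.56 and from 0.051 to 0.29 (DESeq2). Gm11627 in ONT cDNA passed in none of 4 either, with adjusted p from 0.096 to 0.68 (DESeq2). Gm11974, Gm14325, Gm11110 and Gm6792 passed in 1 of the 4 such fits of ONT cDNA, with adjusted p up to 0.59, 0.9, 0.43 and 0.81 (DESeq2). Gm2694 was lost without the second Day4 and without the first Undiff replicate. With the total reads on genes as the scale in place of DESeq2's size factors, a change chosen after seeing the data, the median of all genes shifted by 0.10 in ONT Direct RNA and by 0.31 in ONT cDNA, and 5 genes rose and 8 fell in ONT cDNA in place of 3 and 10. Gm5617 and Gm14305 then passed, and Gm11974 and Gm11627 did not.

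The second comparison asked how the 2 platforms differed in the level of these genes. Here the selection bears on the result, since 73.9% of all reads that entered the totals came from ONT cDNA libraries. A share of genes above in ONT cDNA is therefore given only as a description, beside genes with the same total. The differences below are DESeq2's, on its size factors. On that scale they lie above ratios of the CPM printed beside them, since total reads as the scale move the median of all genes by -0.71 on the log2 scale. With state as a covariate, 18 of the 34 were higher in ONT cDNA and 4 were lower. Of all genes with a mean of at least 5, 24.7% were higher and 26.6% lower, and of the 8190 with a total of at least 100 reads 29.7% and 24.6%. The median log2 fold change of ONT cDNA over ONT Direct RNA was 1.76 for the 34, 1.15 for the 213 genes with RIKEN clone names and 0.19 for all genes with that total. Of the 18 genes, 15 had fewer than 100 reads in ONT Direct RNA and entered the list through ONT cDNA, so that no p is given for their differences. Gm12338, Gm15421 and Gm5617 were the exceptions. By the biotypes of RefSeq, all 5 pseudogenes and 7 of the 8 long non-coding genes were higher in ONT cDNA, and 4 and 5 with total reads as the scale; GENCODE calls some of the 34 otherwise. Of the 9 zinc finger genes none was higher in ONT cDNA and 3 were lower, with a median of -0.14. With total reads as the scale, chosen after seeing the data, 14 of the 34 were higher and the same 4 were lower, beside 10.7% and 41.5% of all genes with that mean and 13.5% and 37.8% of those with that total. Gm8994, Gm17066, Gm5039 and Gm11627 no longer passed. The medians were then 1.03 for the 34, 0.44 for the RIKEN names, -0.52 for all genes with that total and -0.84 for the zinc finger genes, of which none was higher.

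Gm5148 showed the widest gap. Its 0 reads in the 4 ONT Direct RNA libraries against 28088 in ONT cDNA made it at least 3314-fold higher in ONT cDNA, with 3 reads allowed over the 4 libraries. Rps23, whose coding sequence matches the other strand of Gm5148 over 398 of 432 bases, had 21 and 88 reads in Undiff and 34 and 99 in Day4 of ONT Direct RNA, and 344 and 625 and 341 and 618 in ONT cDNA. Of the reads on Gm5148 and Rps23 together, Gm5148 held none in ONT Direct RNA and 91.6 to 95.9% in ONT cDNA. The methods name ONT Direct RNA alone as counted by strand. For ONT cDNA they give counting without strand for exons and no setting for genes, and its part in this difference was not tested. The other gene with no ONT Direct RNA read was Gm10012. Both genes reached the total of 100 on ONT cDNA reads alone, so that their difference was fixed by the choice of genes and is given as a description. Gm10012 had 52 and 20 reads in Undiff and 14 and 17 reads in Day4 in ONT cDNA, at least 12.2-fold higher there. Of these 103 reads 52 came from the first Undiff replicate.

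Other genes were higher in ONT cDNA from a measured level in ONT Direct RNA. Gm15800 (now Hectd4, chr5:121220219-121368577, plus strand), a ubiquitin ligase gene with a transcript of 15482 bases, had 3.32 ± 3.78 CPM in ONT Direct RNA and 86.8 ± 23.5 CPM in ONT cDNA (SD, n = 4), a fitted log2 difference of 5.13 ± 0.59 (SE). Its 4 ONT Direct RNA libraries held 7 reads in all. Gm20300 (chr10:30603195-30606634, minus strand), a long non-coding gene of a single exon, had 4.6 ± 2.78 CPM in ONT Direct RNA and 37.1 ± 12.3 CPM in ONT cDNA (SD, n = 4), a fitted log2 difference of 3.68 ± 0.55 (SE). Gm1821 (Ubb-ps, chr14:46084028-46085000, plus strand), a copy of the polyubiquitin gene Ubb, had 21.1 ± 6.13 CPM in ONT Direct RNA and 137 ± 41.4 CPM in ONT cDNA (SD, n = 4), a fitted log2 difference of 3.43 ± 0.35 (SE). For these 3 genes no ONT cDNA library fell to the level of an ONT Direct RNA library. Gm3258 had 14.3 ± 9.33 CPM in ONT Direct RNA and 86.8 ± 46.5 CPM in ONT cDNA (SD, n = 4) and did not overlap either (a fitted log2 difference of 3.08 ± 0.52 (SE)). Gm19705, Gm11974 and Gm2694 differed by 2.86, 2.64 and 2.59 on the log2 scale, but their Undiff and Day4 libraries overlapped across platforms. Gm5617 (chr9:48495442-48495972, plus strand), a single-exon coding gene, differed by 2.29 ± 0.42 (SE), adjusted p = 4.5e-07 (DESeq2), and Gm561 (now Smim26, chr2:144594054-144595366, plus strand), which encodes a small integral membrane protein, by 1.81. Between states Gm5617 had 20.1 and 27.5 CPM in Undiff and 49.4 and 108 CPM in Day4 in ONT Direct RNA and 108 and 46.4 CPM in Undiff and 303 and 168 CPM in Day4 in ONT cDNA, with no overlap on either platform and adjusted p of 0.13 and 0.11 (DESeq2). Gm561 had 28.7 and 39.7 CPM in Undiff and 21.2 and 58.3 CPM in Day4 in ONT Direct RNA and 138 and 60.3 CPM in Undiff and 83.4 and 51 CPM in Day4 in ONT cDNA, and its states overlapped.

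Of the 4 genes that were lower in ONT cDNA, 3 were zinc finger genes of chromosome 4. Gm4737, the Ahcy copy, had 408 ± 121 CPM in ONT Direct RNA and 98.7 ± 13.2 CPM in ONT cDNA (SD, n = 4), a fitted log2 difference of -1.24 ± 0.19 (SE), adjusted p = 1.1e-09 (DESeq2), and no overlap between platforms. Its state levels were 519 and 493 CPM in Undiff and 359.8 and 259 CPM in Day4 in ONT Direct RNA, where Undiff stood above Day4 without passing (-0.82 ± 0.32 (SE), adjusted p = 0.073, DESeq2), and 90.7 and 118 CPM in Undiff and 91 and 94.8 CPM in Day4 in ONT cDNA. Gm13157 had 46.8 ± 15.4 CPM in ONT Direct RNA and 10.7 ± 5.52 CPM in ONT cDNA (SD, n = 4), a fitted log2 difference of -1.34 ± 0.41 (SE). Gm13242 differed by -1.71 and Gm13247 by -1.14. Gm13157 and Gm13242 had 77 and 34 reads in ONT cDNA and needed their ONT Direct RNA reads to enter the list. No p is therefore given for their differences. Without 1 library Gm13242 and Gm13247 no longer passed in 3 of 8 fits each, those without either Undiff replicate of ONT Direct RNA or the first of ONT cDNA, and Gm13157 in 1, that without the second Day4 replicate of ONT Direct RNA. In Undiff, where both Gm13242 and Gm13247 were detected best, Gm13247 had 141 and 139 CPM in ONT Direct RNA and 28.5 and 42.1 CPM in ONT cDNA, and Gm13242 had 60.3 and 66.1 and 4.22 and 13.9 CPM.

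**Figure D4:**
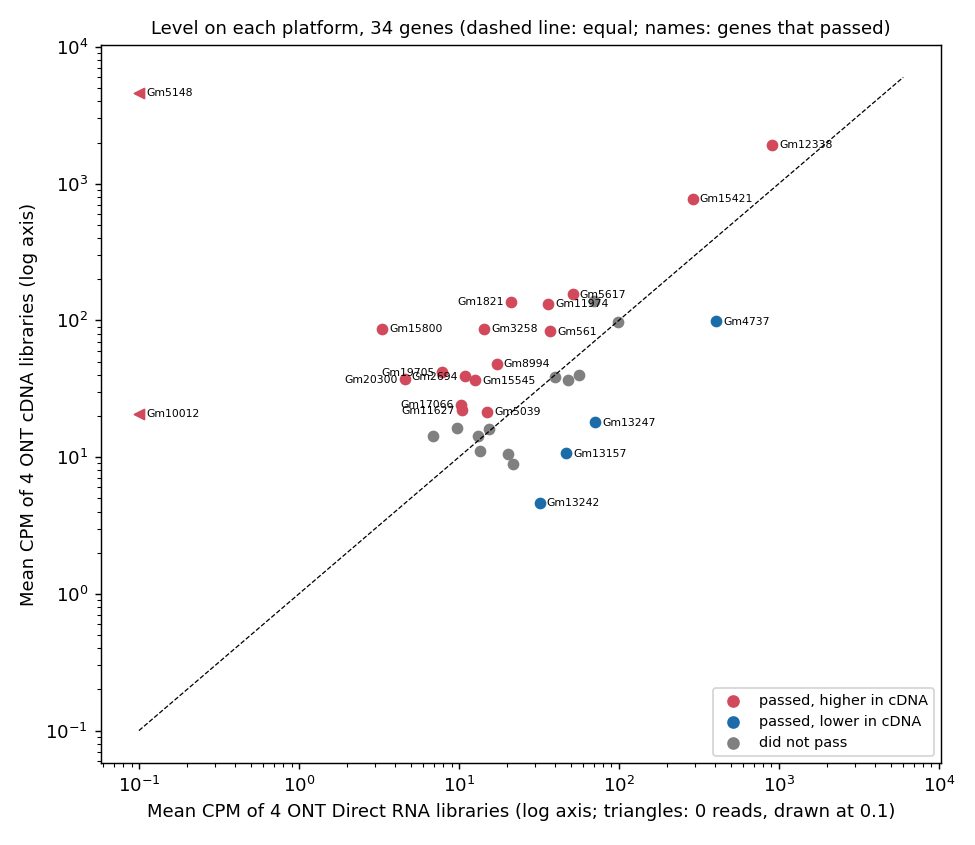
Mean level over 4 ONT Direct RNA libraries (horizontal axis, CPM, logarithmic) and over 4 ONT cDNA libraries (vertical axis, CPM, logarithmic) for the 34 genes, coloured by whether the difference between platforms passed; triangles mark the 2 genes without a read in ONT Direct RNA, drawn at 0.1. The 18 genes higher in ONT cDNA lie above the dashed line of equality and the 4 lower genes below it.

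For the copies, reads on the Gm-numbered gene can be set beside reads on the gene it resembles. Reads left out for low mapping quality are in neither count, and their part in the shares was not tested. Gm12338 held 95.3 to 99% of the reads on it and Cox7c in ONT Direct RNA and 77 to 92.3% in ONT cDNA. Cox7c itself had 11 and 13 reads in Undiff and 2 and 36 in Day4 of ONT Direct RNA. With no differing base within the 192 bases of Gm12338, reads confined to them cannot be told apart. Gm4737 held 93.3 to 97.1% of the reads on it and Ahcy in ONT Direct RNA and 88.7 to 96.6% in ONT cDNA. Ubb had 5 reads in all 8 libraries beside 965 on Gm1821. In these 3 pairs the gene model named as copy carried most reads on both platforms. Gm15421 held 65.1 to 71.6% of the reads on it and Rpl22l1 in ONT Direct RNA and 77.8 to 87.9% in ONT cDNA. Supt4a and Gm3258 were more even, with 9.52 to 22.2% on Gm3258 in ONT Direct RNA and 26 to 58.8% in ONT cDNA. The Day4 replicates of Gm3258 in ONT cDNA lay at both ends of that range, with 152 and 41.9 CPM.

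At the other end, Gm8994 (now Eif4a3l1, chr6:136327539-136329983, plus strand) and Gm6251 (now Rpl32l, chr10:20208490-20208888, plus strand) held a small share. Gm8994 matches Eif4a3, the helicase of the exon junction complex, at 96.2% of 1236 coding bases, and took 0 to 8.42% of their reads in ONT Direct RNA and 1.15 to 13.8% in ONT cDNA. Its own levels were uneven between replicates, with 27.4 and 63.2 CPM in Undiff and 8.34 and 93.9 CPM in Day4 in ONT cDNA, and did not pass between states. Gm6251, which copies the ribosomal protein gene Rpl32 with 10 mismatches, took 0.226 to 0.368% in ONT Direct RNA and 0.171 to 4.71% in ONT cDNA. The highest ONT cDNA share of Gm6251 came from the first Day4 replicate, with 29 of its reads beside 587 on Rpl32. With DESeq2 none of the 7 single-exon genes passed between states on either platform, and 5 of them reached the minimum mean in ONT Direct RNA. For so few genes this cannot be told from the shares of all genes given above. The copies of other genes named in these pairs did not pass either. Of all 12 near-copies, however, 2 fell in ONT Direct RNA, and 1 rose and 1 fell in ONT cDNA. With edgeR, Gm5617 passed on both platforms (adjusted p = 0.0014 in ONT Direct RNA and 0.0063 in ONT cDNA), Gm10012 in ONT cDNA (adjusted p = 0.0017) and Gm8994 in ONT Direct RNA (adjusted p = 0.0038).

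**Figure D5:**
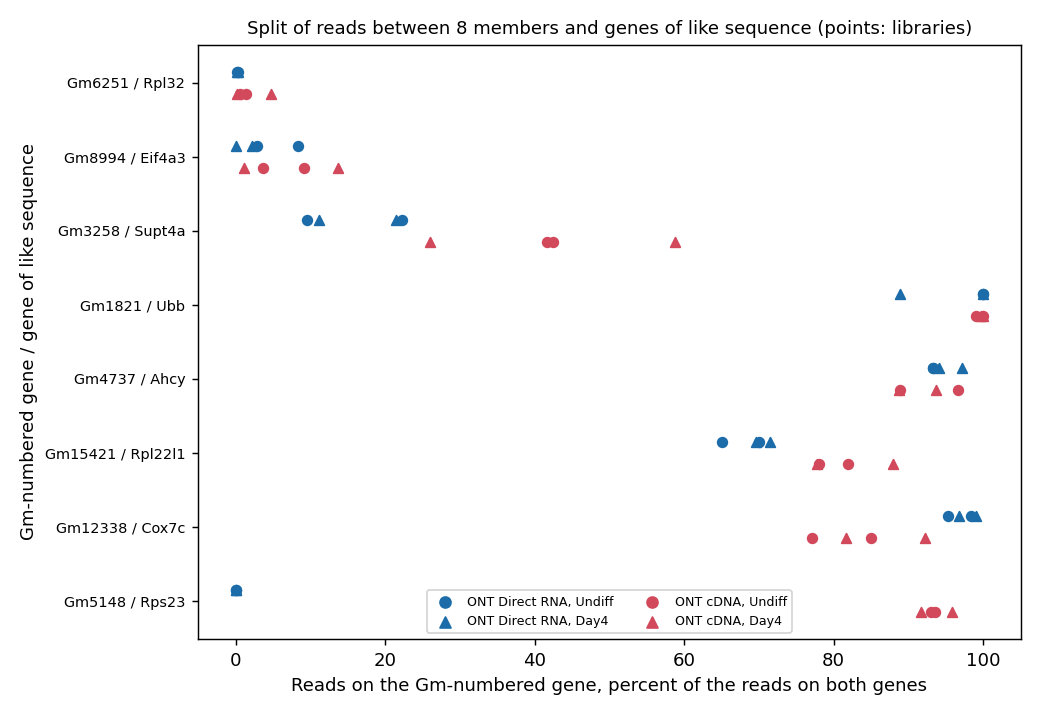
Reads on each of 8 Gm-numbered genes as a percentage of the reads on it and the gene of like sequence (horizontal axis), 1 point per library, with colour for the platform and shape for the state. Gm5148 is at 0% in ONT Direct RNA and above 90% in ONT cDNA, while Gm12338, Gm4737 and Gm1821 hold most reads on both platforms.

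Gm15545 and Gm17066 overlap other genes. Gm15545 (chr7:44986900-44994597, plus strand) lies opposite exons of Bcl2l12, and held 6.67 to 39.3% of the reads on both in ONT Direct RNA and 80.2 to 86.7% in ONT cDNA, where its own level was 31.6 and 18.7 CPM in Undiff and 59.2 and 37.1 CPM in Day4. Bcl2l12 was lower in ONT cDNA by 1.54 on the log2 scale while Gm15545 was higher by 2.07. Gm17066 (chr14:105109390-105114676, minus strand) lies within Rbm26 on the same strand and shares 415 identical bases with it. Its levels were 8.61 and 20.9 CPM in Undiff and 3.53 and 8.13 CPM in Day4 in ONT Direct RNA and 21.1 and 23.5 CPM in Undiff and 13.7 and 38.5 CPM in Day4 in ONT cDNA. The reads that the counting called ambiguous were 1.41 to 1.58% of aligned reads in ONT Direct RNA and 4.38 to 5.05% in ONT cDNA.

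The total of 100 reads is a cut in a continuous series. Just inside it stood Gm10012 with 103 reads, Gm20939 with 106, and Gm6251 and Gm14305 with 111 each. Just outside were Gm14322 with 97 reads, Gm15446 with 94 and Gm29766 with 92. Gm29766 had 12 and 33 reads in Undiff and 1 and 8 in Day4 of ONT Direct RNA, and Gm15446 had 4 and 6 against 0 and 9. With a total of 50 reads 62 genes enter, and with 200 reads 21 remain.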

How the data were processed

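Per the labels and the study's methods, the authors aligned ONT reads to mm10 with minimap2 and counted reads per gene with HTSeq, by strand for ONT Direct RNA. The deposited files hold these raw counts, 1 per library. HTSeq's special lines were left out: no feature (9.75 to 15.8% of aligned reads), ambiguous (1.41 to 5.05%) and low mapping quality (20.4 to 28.0%).

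All 24421 genes were fitted with DESeq2 1.42.0 (R 4.3.3; betaPrior TRUE, Cook cutoff and independent filtering off, as in the study), and p-values were Benjamini-Hochberg adjusted over all genes. edgeR 4.0.16 (quasi-likelihood), TMM factors, no shrinkage, filters and a replicate block were alternatives. The tests were checked on simulated data. Replicate libraries were cultured separately. The sources used here do not say that replicate numbers match cultures between kits.

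The genes and lists were chosen with earlier results of these data known. Genes to name were all 34, with values in each library for the 12 with most reads, those that passed between states, up to 8 each way between platforms, and 3 on each side of the total of 100. Annotation came from GENCODE vM21 and RefSeq GRCm38.p6; near-copies were found with BLAST 2.17.0. Counting intervals are exact, at 95%.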

Additional observations from a re-analysis of the deposited data

Results flagged for a closer look

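The Hectd4 model Gm15800 was picked out because its states moved in opposite directions on the 2 platforms without overlap in CPM: it was lower in Day4 in ONT Direct RNA, with 3 and 3 reads against 0 and 1, and higher in Day4 in ONT cDNA, with 71.7 and 67.0 CPM against 89.5 and 119 CPM (68 and 140 reads against 118 and 247). The difference of the log2 fold changes was 2.63 ± 1.58 (SE) and did not pass the interaction test of DESeq2 (adjusted p = 1.00). The 7 reads of ONT Direct RNA limit this comparison.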

How the results depend on the processing

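With edgeR in place of DESeq2, 15 of the 34 genes passed between states in ONT Direct RNA in place of 8, and 13 in place of 6 on both platforms. Those added on both were Gm5617, Gm11974, Gm14325, Gm2694, Gm5662, Gm14305 and Gm20939. The cause was not tested. With at least 10 reads in every library few genes were left to fit: 0 passed in ONT Direct RNA, 5 in ONT cDNA, 0 on both and 3 between platforms. With a total of at least 200 reads, 5 of the 21 genes passed in ONT Direct RNA. Without 1 replicate, 2 to 6 passed in ONT Direct RNA, 7 to 10 in ONT cDNA and 2 to 6 on both; a lone library is then assumed to vary like the other group. With the replicate block 6, 11 and 5 passed, and 21 between platforms, where Gm5039 was lost; the states share only a number, which culture a number marks on each platform is not given, and over 1395 genes the deviations of same-numbered libraries correlated at 0.214 and 0.501 between states and at 0.124 (Undiff) and -0.416 (Day4) between platforms. The block lost Gm5039 and Gm20939 in ONT Direct RNA and Gm14325, Gm11627 and Gm13242 in ONT cDNA, where Gm5617 then rose. Crossing the Day4 numbers in that block also gave 21. None of the calls between states or platforms changed sign under the alternatives run.

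Depth limits the low levels: 22 of the 34 genes had a read in every library and 3 had at least 10 in each, and 18, 28, 30 and 32 had more than 1 read in the 4 Day4 libraries. TMM factors moved the median log2 fold change by at most 0.07. Total reads on genes as the scale, added after seeing the data, moved it by 0.10, 0.31 and -0.71 and gave 8, 13 and 6 calls between states, where 5 of the 13 rose in place of 3, and 18 between platforms in place of 22.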
